A study of Mus musculus with 2 samples.

Results

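The genes described here are 10 lysosomal genes of the mouse: the cathepsins Ctsa, Ctsb, Ctsc, Ctsd, Ctsh, Ctsl, Ctss and Ctsz, the legumain gene Lgmn, and Cst3, which encodes the cathepsin inhibitor cystatin C. They were taken by name from the 20299 genes counted in the kidney cells of mice with nephrotoxic nephritis (NTN), a model of acute glomerular injury, and all 10 were present. Transcripts were counted as unique molecular identifiers (UMIs), 1 per captured RNA molecule, in 1 library of WT mice (5470 cells) and 1 library of Vsir-/- mice (1844 cells), and the UMIs of each gene were summed by library and by the 16 cell clusters that the authors named. Both groups were C57BL/6 mice aged 8 weeks. Both had received 200 μg of sheep IgG with Freund's complete adjuvant and, after 4 days, sheep serum against the glomerulus at 2 μl/g as the labels state it (the study's methods give another dose). Vsir encodes VISTA, an inhibitory checkpoint protein, and its deletion was carried in the germline, so every cell of these mice lacked it. The number of mice behind each library is not stated. The labels describe the WT cells as sorted for CD45, the surface protein of leukocytes, and the Vsir-/- cells as all kinds of kidney cell, whereas the study's methods state a CD45+ sort for both.

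Cathepsins are proteases of the lysosome, where they degrade proteins taken up by endocytosis or delivered by autophagy. In macrophages, dendritic cells and B cells some of them also trim the invariant chain and antigens for presentation on MHC class II. Legumain cleaves after asparagine and processes several cathepsins to their mature form, and secreted cystatin C blocks cysteine cathepsins outside the cell. In the kidney these genes are not limited to leukocytes, because cells of the proximal tubule reabsorb filtered protein and break it down in a large lysosomal compartment.

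Stretches of the promoters are shown for 6 of these genes, because 4 of them hold the E-box CACGTG, the core of the element that lysosomal transcription factors of the TFEB family are known to bind, and 2 others hold GAGGAAGT, a sequence of the type bound by the myeloid factor PU.1. RefSeq promoter windows on build GRCm38.p6, from 250 bases before to 50 bases after each start site, were given for 8 of the 10 genes (all but Ctsb and Ctsh). Both strands were searched, and capitals mark the motif. In Ctss and Ctsc the motif lies on the strand opposite to the gene and is printed as ACTTCCTC.
Ctsa, chr2:164833749-164833778, plus strand: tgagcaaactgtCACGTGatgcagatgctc
Ctsd, chr7:142387908-142387937, minus strand: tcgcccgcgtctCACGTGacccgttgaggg
Ctsl, chr13:64370739-64370768, minus strand: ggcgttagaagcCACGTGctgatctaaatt
Lgmn, chr12:102439124-102439153, minus strand: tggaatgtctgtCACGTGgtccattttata
Ctss, chr3:95526773-95526802, plus strand: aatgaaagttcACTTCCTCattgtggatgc
Ctsc, chr7:88277923-88277952, plus strand: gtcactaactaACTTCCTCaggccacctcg
The E-box began 12 bases before the start site in Ctsa, 98 in Ctsd, 236 in Ctsl and 49 in Lgmn, and Ctsd held another 245 bases before it and Ctsa another 5 bases after it. A promoter with CACGTG was found for 8.09% of the 27025 genes in the RefSeq table, and one with GAGGAAGT for 3.69%. The longer form TCACGTGA, which contains the E-box, occurred in Ctsa and Ctsd and in 1.12% of all genes. Such a match describes letters and does not show that a factor was bound.

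The WT library held 32799550 UMIs (median of 4726.5 per cell) and the Vsir-/- library 18601189 (median of 6673). Vsir itself had 4278 UMIs in WT and 8 in Vsir-/- cells. Ptprc, which encodes CD45, was detected in 94.2% and 73.6% of cells, respectively. In the Vsir-/- library, 233 of the 349 cells named non-EM-like CD4+ T cells (EM, effector memory) had no UMI of 6 T cell genes, and 218 of those also had none of Ptprc. Of the 88 Vsir-/- cells named B cells, 43 had no UMI of 4 B cell genes. Summed transcripts of 12 proximal tubule markers ranged over the 13 clusters compared from 14.9 to 224 CPM (counts per 1000000 UMIs of the same cluster and library, the unit of every level below) in WT and from 650 to 7202 CPM in Vsir-/- cells. Going the other way, lymphocyte and neutrophil transcripts were more abundant in WT macrophages, where the 4 B cell markers summed to 319 to 1188 CPM against 7.76 to 56.2 in Vsir-/- macrophages. The libraries also differed in which gene symbols they used. A total of 341 symbols had at most 5 UMIs in WT and at least 500 in Vsir-/- cells, 91 had the reverse, and 41 pairs of these are an older and a newer name of the same gene in the RefSeq table (Aes with 13241 UMIs in WT only and Tle5 with 7784 in Vsir-/- only, for example). None of the 10 genes was among these symbols. This screen finds only symbols nearly missing from 1 library, so it does not show that the 10 genes were counted alike in both. The study states male mice, but Xist, which is transcribed from the inactive X chromosome, had 16405 UMIs in the Vsir-/- library and none in WT, and the Y-linked Ddx3y had 1779 UMIs in WT and none in the Vsir-/- library. Only 5 cell barcodes occurred in both libraries. With 1 library per genotype there were no replicates and no test, and each interval below is a 95% interval that covers counting error only. UMIs were counted from the 3' end, so levels are compared for the same gene and not between genes.

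The 10 genes took 86818 UMIs in WT (2647 CPM) and 94132 in Vsir-/- cells (5061 CPM). In WT, 63.0% of them lay in the 3 macrophage clusters (interval, 62.7%–63.3%), which held 13.9% of the cells and 19.4% of the UMIs of all genes. In Vsir-/- cells, these clusters were 29.1% of the cells and held 21.8% of the UMIs of all genes. They held 49.5% of the UMIs of the 10 genes there (49.2%–49.8%). The order of the shares depended on depth, because after cells had been thinned to 1000 UMIs (leaving out 167 WT and 78 Vsir-/- cells with fewer) the macrophage share was 52.7% in WT and 63.1% in Vsir-/- cells. At equal depth, the share of all UMIs held by these clusters is their share of cells. Before cells were left out, that share was 13.9% in WT and 29.1% in Vsir-/- cells, so the thinned shares have different baselines. Within the macrophages, the R1 cluster (resident macrophages) held 9.65% of the UMIs in WT and 24.3% in Vsir-/- cells, and the M2-like R2 cluster (infiltrating macrophages) 40.9% and 16%. The cluster named plasmacytoid dendritic cells (pDC) held 1.88% in WT and 18.0% in Vsir-/- cells. Most of the latter were UMIs of Cst3 (13014), and the member with the next most there was Ctss (1227). Cst3 also had the most UMIs of the 10 genes in each whole library, 25039 in WT and 39210 in Vsir-/- cells.

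**Figure D1:**
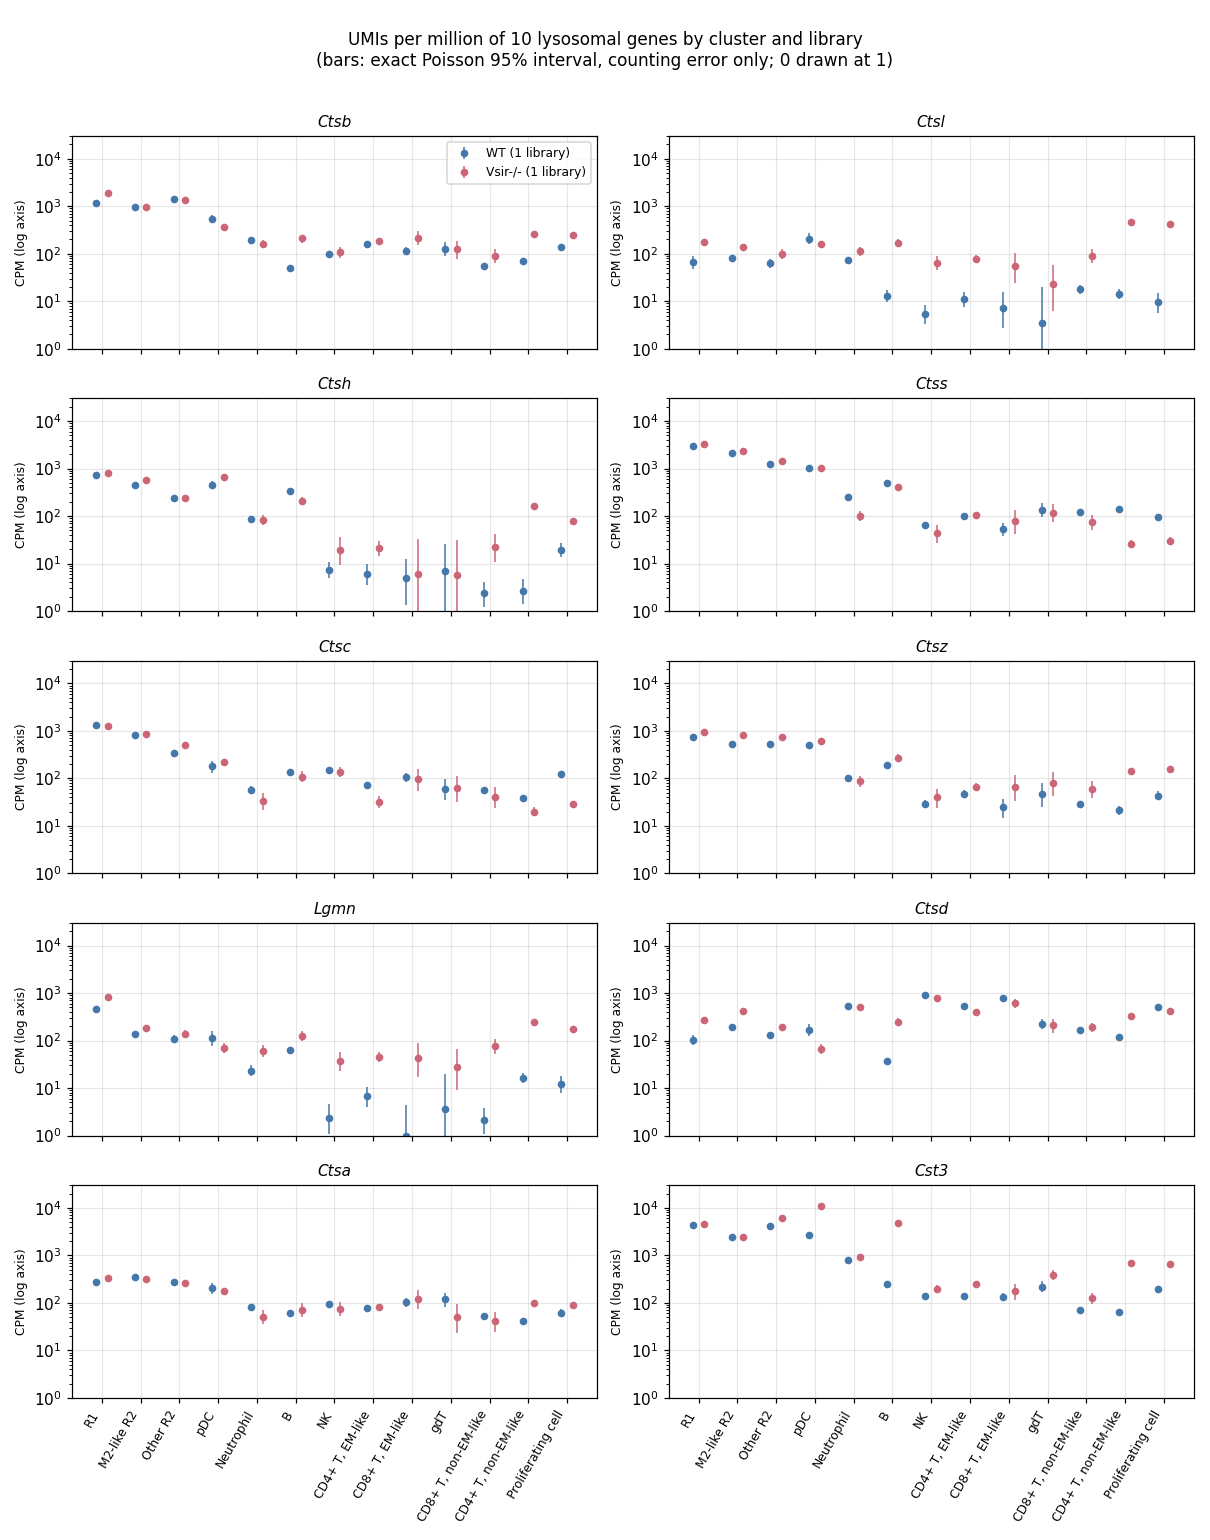
Level of each of the 10 genes (CPM, log axis) in the 13 clusters with at least 20 cells in both libraries, with WT in blue and Vsir-/- in red; each point is 1 library and the bars are exact Poisson 95% intervals for counting error only. Most genes peak in the macrophage clusters at the left, Ctsd peaks in NK cells and EM-like CD8+ T cells, and the Vsir-/- points of Ctsl and Lgmn lie above those of WT in every lymphoid cluster.

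The libraries differed in genotype and, as given above, in the labelled sort, in Xist and Y-linked transcripts and in gene symbols. In a ratio between the libraries these cannot be told apart. The log2 ratio of CPM was taken as Vsir-/- over WT, with 0.5 UMIs added to each count. It covered the 13 clusters with at least 20 cells in each library and genes with at least 20 UMIs over both libraries. Of the 130 combinations of gene and cluster, 124 passed this filter. The 6 that did not were Ctsh, Ctsl and Lgmn in EM-like CD8+ T cells and in gamma delta T cells. At least 2-fold higher levels in Vsir-/- cells were found in 34 combinations (27.4%), where the share over all genes and clusters was 17.7%. At least 2-fold lower levels were found in 7 combinations (5.65%), where that share was 9.38%. By gene, 7 clusters passed 2-fold upward for Ctsl and for Lgmn, 5 for Ctsh, 4 each for Ctsd, Ctsz and Cst3, 2 for Ctsb, 1 for Ctsa, and 0 for Ctsc and Ctss. Downward, 3 clusters passed for Ctss, 2 for Ctsc, and 1 each for Ctsa and Ctsd. Of the 34 higher combinations, 13 lay in the non-EM-like CD4+ and the proliferating clusters, where 47.8% and 37.5% of all genes tested were at least 2-fold higher. With these 2 clusters left out, 21 of 104 were higher. In the remaining clusters the share of all genes that were higher ranged from 5.98% (gamma delta T cells) to 16.3% (B cells). After a tubule-rich profile had been subtracted from the Vsir-/- sums, as described below, the counts were 18 higher and 18 lower of 119. The share over all genes was not computed after this subtraction. The 5 combinations that then had too few UMIs, Lgmn in NK cells and both Lgmn and Ctsh in the EM-like CD4+ and the non-EM-like CD8+ cluster, had all been higher before.

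**Figure D2:**
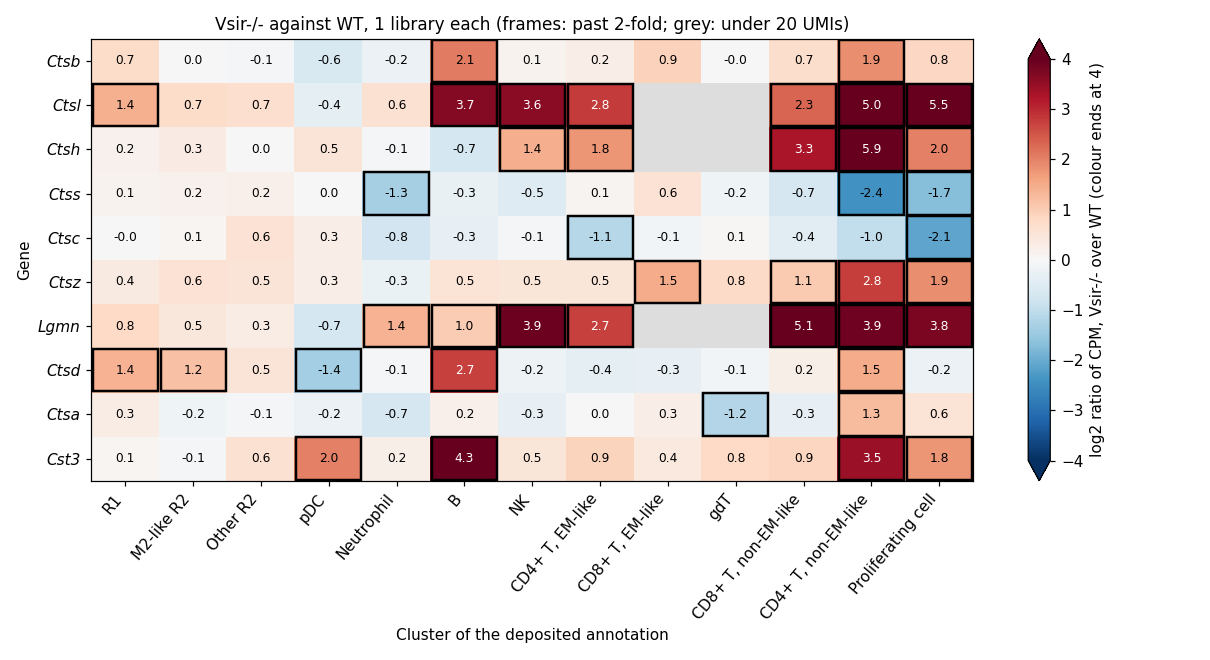
Log2 ratio of CPM, Vsir-/- over WT, for each gene (rows) and cluster (columns), 1 library per genotype; black frames mark ratios past 2-fold and grey cells had under 20 UMIs. Most frames lie in B, CD4+ T, non-EM-like CD8+ T and proliferating cells, whereas in the 3 macrophage clusters only Ctsl and Ctsd in R1 and Ctsd in M2-like R2 are framed.

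In the macrophage clusters few of the 10 genes differed by 2-fold between the libraries. The 13 macrophage markers summed to 16311 CPM in WT and 21427 in Vsir-/- R1 cells, to 28544 and 24290 in M2-like R2, and to 8903 and 9821 in Other R2. In R1, C1qa, which encodes a complement protein typical of resident macrophages, was at 4570 and 5366 CPM. In R1 macrophages, 2 of the 10 genes were at least 2-fold higher in Vsir-/- cells (13.6% of all 8862 genes tested) and 0 were lower (8.78% of all genes). The median log2 ratio of the 10 genes was 0.34 there, that of all genes was -0.01, and that of the 10 genes was 0.09 when each cell was given the same weight. In M2-like R2 macrophages 1 was higher (8.11% of all genes) and 0 lower (7.61%), with medians of 0.25 for the 10 genes and 0.01 for all. In the remaining R2 cluster (Other R2) none passed 2-fold upward (6.71% of all genes) or downward (9.52%), and the medians were 0.41 and -0.06.

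Among the endopeptidases, Ctss, which removes the invariant chain from MHC class II in antigen-presenting cells, was close to equal in the macrophages of both libraries. In R1 its level of 2953 CPM in WT stood beside 3234 CPM in Vsir-/- cells (log2 ratio, 0.13, 0.06 to 0.21). In M2-like R2 it was 2092 and 2345 CPM (0.16, 0.11 to 0.22), and in Other R2 1236 and 1434 CPM (0.21, 0.10 to 0.33). Each of these intervals lies above 0 and within 1.5-fold. Ctsb, which cuts both inside proteins and from their carboxyl end, was at 1148 CPM in WT and 1886 CPM in Vsir-/- R1 cells, a log2 ratio of 0.72 (0.60 to 0.83). In M2-like R2 its levels were 967 and 972 CPM, and in Other R2 1450 and 1378 CPM, with both intervals spanning 0. Thus the higher Ctsb level was seen in R1 and not in the R2 clusters, and the difference between clusters was not tested. Ctsl, an endopeptidase that also takes part in invariant chain processing, was at 66.2 CPM in WT R1 cells (46 UMIs) and 179 CPM in Vsir-/- R1 cells (287 UMIs), a log2 ratio of 1.42 (0.98 to 1.92). Of the 46 WT UMIs, 32.6% came from 1 cell, and without the cell with the most Ctsl in each library the ratio was 1.89. The ratio was 2.07 when cells with a UMI of the dendritic cell genes Xcr1 or Clec9a were left out. In M2-like R2 the Ctsl levels were 82.9 and 136 CPM (0.72, 0.47 to 0.96), and in Other R2 62.4 and 99.6 CPM (0.67, 0.20 to 1.14).

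Ctsd, the aspartic endopeptidase of the lysosome, was the member past 2-fold in both R1 and M2-like R2 macrophages. In R1 it was at 104 CPM in WT (72 UMIs) and 270 CPM in Vsir-/- cells (433 UMIs), a log2 ratio of 1.38 (1.02 to 1.76). In M2-like R2 it was at 192 and 429 CPM (1.16, 1.01 to 1.30). In Other R2 it was at 132 and 189 CPM (0.52, 0.19 to 0.85). The ratio in R1 stayed between 1.32 and 1.56 under the alternatives tried, and that in M2-like R2 between 1.07 and 1.58. The Ctsd UMIs were unevenly spread among R1 cells, since the top 12 of 116 WT cells held 68.1% and the top 24 of 237 Vsir-/- cells held 64.4% of them. The M2-like R2 cluster differed in other genes too: Ly6c2, a marker of recently arrived monocytes, was at 2972 CPM in WT and 1673 in Vsir-/- cells, and C1qa was at 31.9 and 378 CPM. The part of this in the Ctsd ratio was not tested.

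Lgmn, the asparaginyl endopeptidase, was at 472 CPM in WT and 818 CPM in Vsir-/- R1 cells (0.79, 0.62 to 0.97), and at 136 and 187 CPM in M2-like R2 (0.46, 0.25 to 0.66). In Other R2 it was at 110 and 136 CPM, with an interval that spans 0 (-0.07 to 0.68). R1 was the cluster with the highest Lgmn level in both libraries, as the plot of levels by cluster shows. Proximal tubule markers moved in the same direction in all 3 macrophage clusters, from 224 to 1164 CPM in R1, from 91.7 to 655 in M2-like R2 and from 51.5 to 831 in Other R2. Slc34a1, the sodium-phosphate transporter that defines the proximal tubule, had 0 UMIs in both WT R2 clusters and 1 in WT R1, and it was at 67.5 to 169 CPM in the 3 Vsir-/- clusters. When a profile of the Vsir-/- cells without T cell transcripts was subtracted until the tubule share equalled that of WT (6.45% to 10.9% of the macrophage UMIs), the R1 ratios were 1.02 for Ctsl, 0.90 for Lgmn, 1.32 for Ctsd and 0.86 for Ctsb. In Other R2 the Ctsl ratio was -0.12 after this subtraction.

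The exopeptidases stayed within 2-fold in all 3 macrophage clusters. Ctsc, the dipeptidyl peptidase that activates granule serine proteases, was at 1307 and 1286 CPM in R1 and at 809 and 856 CPM in M2-like R2, and both intervals span 0. In Other R2 it was at 342 CPM in WT and 511 CPM in Vsir-/- cells (0.58, 0.38 to 0.78). Ctsh, an aminopeptidase, was at 714 and 796 CPM in R1 (0.16, 0.01 to 0.31), 461 and 586 CPM in M2-like R2 (0.34, 0.23 to 0.45), and 236 and 238 CPM in Other R2. Ctsz, a carboxypeptidase, was higher in Vsir-/- cells in each of the 3 clusters by a similar ratio: 0.37 in R1 (728 and 940 CPM), 0.58 in M2-like R2 (534 and 801 CPM), and 0.51 in Other R2 (520 and 740 CPM). Ctsa, a serine carboxypeptidase that also protects lysosomal galactosidase and neuraminidase from degradation, was at 269 and 334 CPM in R1 (0.31, 0.07 to 0.56). It was at 351 and 311 CPM in M2-like R2 (-0.17, -0.32 to -0.03) and at 271 and 259 CPM in Other R2.

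The inhibitor Cst3 was almost equal in R1 (4291 and 4525 CPM; log2 ratio, 0.08) and in M2-like R2 (2465 and 2387 CPM; -0.05). In Other R2 it was at 4067 CPM in WT and 6250 CPM in Vsir-/- cells (0.62, 0.56 to 0.68). In R1, then, Ctsd, Ctsl, Lgmn and Ctsb were higher in the Vsir-/- library by 1.64- to 2.68-fold, Ctsa and Ctsz by 1.24- and 1.29-fold, and Ctss, Ctsc, Ctsh and Cst3 lay between 0.984- and 1.11-fold.

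The share of R1 cells with a Ctsl UMI was 22.4% in WT (15.2%–31.1%; 26 of 116 cells) and 52.3% in Vsir-/- cells (45.8%–58.8%; 124 of 237). After thinning to 1000 UMIs it was 5.5% (2.05%–11.6%) of 109 cells and 19.8% (14.7%–25.8%) of 212 cells. In EM-like CD4+ T cells, which are not a known main source of Ctsl, the thinned shares were 1.04% in WT and 4.56% in Vsir-/- cells (median depths before thinning of 4903 and 5852.5 UMIs, and 4868.5 and 5921 in R1). For Ctss, the thinned share of R1 cells was 89.0% in WT and 92.5% in Vsir-/- cells, against 9.81% and 12% of EM-like CD4+ T cells.

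Ctsd was highest in other clusters than most members. In WT it was highest in basophils (935 CPM), NK cells (894 CPM) and EM-like CD8+ T cells (771 CPM), and lowest in B cells (37.0 CPM), R1 macrophages (104 CPM) and non-EM-like CD4+ T cells (119 CPM). The intervals of R1 and non-EM-like CD4+ T cells overlap, as do those of basophils (785 to 1106 CPM) and NK cells, so these orders are not resolved. In the Vsir-/- library NK cells (777 CPM) and EM-like CD8+ T cells (608 CPM) again led, followed by neutrophils (502 CPM). Over the 29 sums of a cluster and library with at least 20 cells, Pearson's r of log2(CPM + 10) between Ctsd and each of the other 9 genes lay between -0.48 (Ctss) and -0.12 (Ctsa). In contrast, r was 0.93 between Ctsz and Cst3, 0.91 between Ctsh and Ctsz, and 0.86 between Ctss and Ctsz. Over all 29 sums, not all the other members went together. The r between Ctsl and Ctsc was 0.11 (0.50 over the WT sums and -0.07 over the Vsir-/- sums). That between Ctsl and Ctss was 0.25 (0.77 and -0.01). Both were thus higher over the WT sums than over the Vsir-/- sums. These are descriptions over sums that share a library, a depth and free RNA.

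Among 8767 genes with at least 500 UMIs, those most like each member were ranked in the same way. For Ctsb they were Csf1r (r = 0.94), the receptor for the macrophage growth factor, Ptpro and Cd302. For Ctss they were Pld4 (0.95), Rassf4 and Cd68, for Ctsh Unc93b1 (0.94), H2-Ab1 and H2-Aa, for Ctsc Zeb2os (0.89), Gusb and Fcgr2b, and for Ctsa Ptpro (0.91), Zeb2os and Ctsb. Ctsz was closest to BC028528 (0.95), Tifa and Psap, and Cst3 to Psap (0.93), Ccdc88a and Ctsz. Ctsl was closest to App (0.94), Khk, which encodes the fructose kinase of the proximal tubule, and Slc6a6, and Lgmn to F11r (0.91), a tight junction protein, Slc7a7 and Apoe. Ctsd was closest to Myl6 (0.81), Il18rap and Spry2.

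In EM-like CD4+ T, non-EM-like CD8+ T and NK cells, Ctsl, Lgmn and Ctsh were past 2-fold upward, from WT levels of 2.17 to 18.0 CPM. In EM-like CD4+ T cells, 3 of the 10 genes were at least 2-fold higher in Vsir-/- cells (10.4% of all genes) and 1 was lower (5.41%). Ctsl was at 11.1 CPM in WT (31 UMIs) and 77.3 CPM in Vsir-/- cells (122 UMIs), a log2 ratio of 2.79 (2.23 to 3.42). Lgmn was at 6.78 and 45.6 CPM (2.72, 2.01 to 3.56), and Ctsh at 6.07 and 20.9 CPM (1.77, 0.90 to 2.72). Ctsc was the gene that was lower, at 71.0 CPM in WT and 31.7 CPM in Vsir-/- cells (-1.15, -1.64 to -0.71).

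The same 3 genes passed 2-fold in NK cells, where 3 of 10 were higher (9.86% of all genes) and 0 lower (7.01%). Ctsl was at 5.32 and 65.1 CPM, Lgmn at 2.39 and 37.5 CPM and Ctsh at 7.45 and 19.7 CPM. Of the Ctsh UMIs in NK cells, 13 of 28 in WT and 7 of 10 in the Vsir-/- library came from 1 cell each, and without these cells too few were left to pass the filter. Among the non-EM-like CD8+ T cells, 4 of 10 were higher (11.1% of all genes) and 0 lower (9.66%): Lgmn (2.17 and 76.9 CPM), Ctsh (2.37 and 22.6 CPM), Ctsl (18.0 and 90.5 CPM), and Ctsz (28.7 and 58.8 CPM). Without the cell with the most UMIs of the gene in each library, the Ctsz ratio there was 0.73, and Ctsh (12 and 10 UMIs) no longer passed the filter. Of the 7 genes tested in EM-like CD8+ T cells, only Ctsz was past 2-fold upward (24.3 and 66.3 CPM; 20 and 11 UMIs), where 6.03% of all genes were, and 0 were lower, where 9.98% of all genes were. Of those 11 Ctsz UMIs, 5 came from 1 cell, and the ratio was 0.80, under 2-fold, without the cell with the most Ctsz in each library. Lgmn had 0 UMIs among 823228 in the WT cells of that cluster, with an upper bound of 4.48 CPM, and 7 UMIs (42.2 CPM) in the Vsir-/- cells. In gamma delta T cells, 0 of 7 genes were higher (5.98% of all genes), and Ctsa was lower (6.60%), from 33 UMIs in WT (118 CPM) to 9 in Vsir-/- cells (50.8 CPM; log2 ratio, -1.16; -2.46 to -0.12).

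Tubule transcripts moved with Ctsl, Lgmn and Ctsh in these clusters. Proximal tubule markers were higher in the Vsir-/- library in EM-like CD4+ T cells (116 and 1606 CPM), NK cells (16.5 and 1174 CPM), and the non-EM-like CD8+ cluster (49.4 and 2868 CPM). For each 100 proximal tubule UMIs, the Vsir-/- lymphoid clusters with at least 20 cells and the neutrophils held 3.08 to 7.69 UMIs of Ctsl, where the non-EM-like CD4+ cells without T cell or Ptprc transcripts held 5.88. The proliferating cluster held 13.4, the Vsir-/- R1, M2-like R2 and Other R2 macrophages 15.4, 20.8 and 12, and the Vsir-/- pDC cluster 24.3. Of Lgmn, the Vsir-/- EM-like CD4+ T, NK and non-EM-like CD8+ T cells held 2.84, 3.19 and 2.68. Of Ctsh they held 1.3, 1.68 and 0.789. The non-EM-like CD4+ cells without T cell or Ptprc transcripts held 3.17 of Lgmn and 2.2 of Ctsh. The part of tubule transcripts in the ratios of these genes was not tested. The subtraction described above took every Vsir-/- UMI of Ctsl in EM-like CD4+ T, NK and non-EM-like CD8+ T cells. The log2 ratios of Ctsl after it (-4.88, -2.26 and -3.44, respectively) were thus set by the fraction of a UMI added to each count. They cannot show the direction of Ctsl in these clusters.

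**Figure D3:**
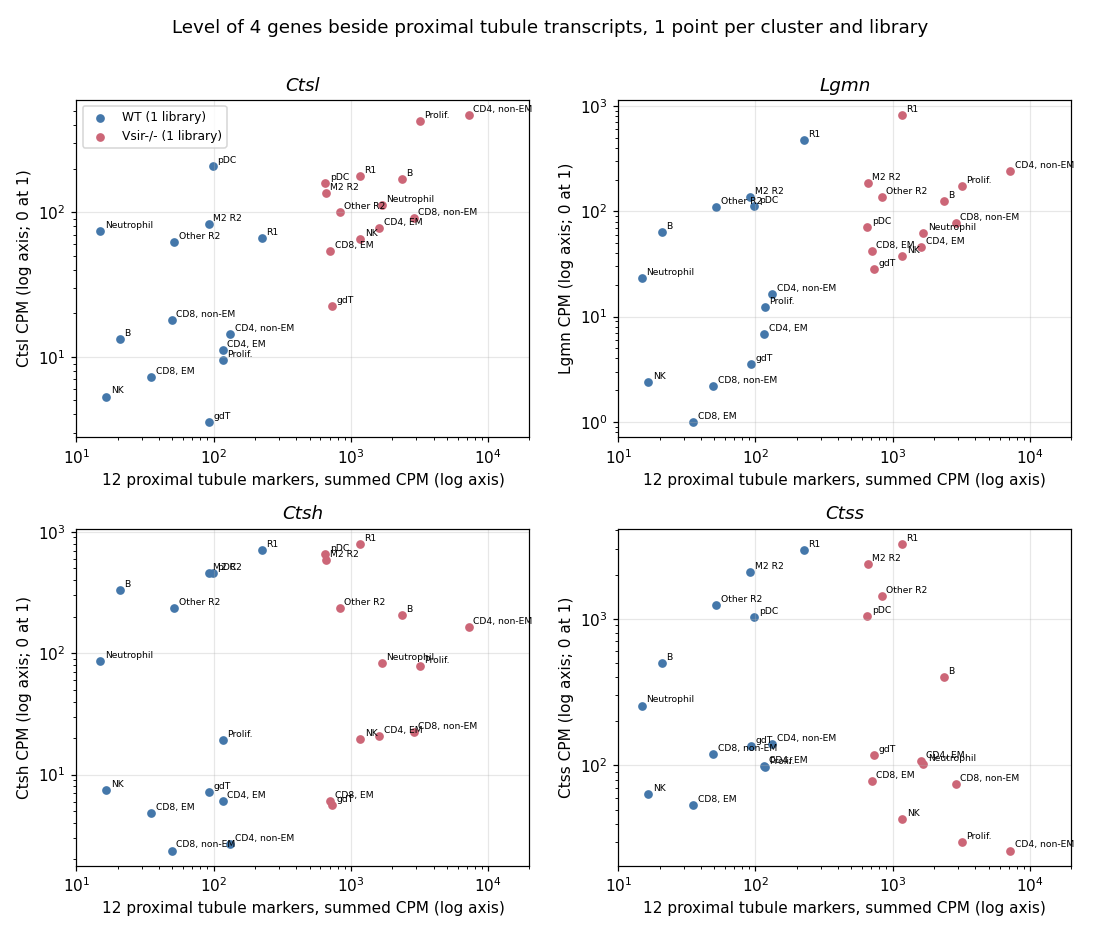
Level of Ctsl, Lgmn, Ctsh and Ctss (CPM, vertical log axis) against the summed level of 12 proximal tubule markers (CPM, horizontal log axis), 1 point per cluster and library, with WT in blue and Vsir-/- in red. Every Vsir-/- point lies to the right of every WT point (at least 650 against at most 224 CPM), and Ctsl is highest in the non-EM-like CD4+ and proliferating clusters of Vsir-/- cells, where Ctss is lowest.

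The non-EM-like CD4+ cluster of the Vsir-/- library was a mixture, and its cells differed in these genes. Taken whole, 8 of the 10 genes were at least 2-fold higher than in WT (47.8% of all genes, as given above) and Ctss was lower (10.7% of all genes were), at 140 CPM in WT and 26.3 CPM in Vsir-/- cells. The 218 cells without a T cell or Ptprc transcript had 542 CPM of Ctsl, 292 of Lgmn, 203 of Ctsh, 333 of Ctsd and 689 of Cst3, but 8.69 CPM of Ctss and 20.6 of Ctsc. Their proximal and distal tubule markers summed to 9223 and 7388 CPM. The 116 cells with a T cell transcript had 281 CPM of Ctsl, 116 of Lgmn, 81.2 of Ctsh and 64.8 of Ctss, beside 2683 CPM of proximal tubule markers. Against the 895 WT cells, all of which had a T cell transcript, the log2 ratio in these 116 cells was 4.28 for Ctsl, 4.86 for Ctsh, 2.83 for Lgmn, -1.10 for Ctss and -1.46 for Ctsc. In the proliferating cluster, 5 genes were higher (37.5% of all genes, as above), among them Ctsl (9.45 and 428 CPM) and Lgmn (12.4 and 173 CPM). Ctsc (123 and 28.6 CPM) and Ctss (97.5 and 30.1 CPM) were lower there (9% of all genes). Of its 189 Vsir-/- cells, 123 had no T cell transcript, compared with 4 of 118 WT cells.

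In neutrophils, 1 of the 10 genes was at least 2-fold higher (9.99% of all genes) and 1 lower (10.6%), with a median log2 ratio of -0.16 (-0.06 for all genes, and -0.63 for the 10 genes after the subtraction described above). Ctss was at 256 CPM in WT (635 UMIs) and 102 CPM in Vsir-/- cells (79 UMIs), a log2 ratio of -1.32 (-1.69 to -0.99). Lgmn was at 23.4 and 61.8 CPM (1.40, 0.82 to 1.98), and its ratio was -1.25 after the subtraction. Ctsd was nearly equal, at 528 and 502 CPM in the sums and with medians per cell of 477 and 484 CPM. Ctsc, which activates the serine proteases of neutrophil granules, was at 57.6 and 33.5 CPM (-0.76, -1.45 to -0.17). Markers of other leukocytes moved with Ctss: the 4 B cell markers were at 173 CPM in WT and 3.86 CPM in Vsir-/- neutrophils, and the 6 T cell markers at 451 and 55.3 CPM. The sum of the 13 macrophage markers went the other way, at 6006 and 7755 CPM. Within that list, Adgre1 (30.2 and 16.7 CPM), C1qa (41.9 and 12.9), Cx3cr1 (44.3 and 3.86) and Ly6c2 (652 and 622) were lower in Vsir-/- neutrophils. The rise of the sum thus came from other genes of the list. The part of these transcripts in the Ctss ratio was not tested.

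In the Vsir-/- library the pDC cluster held more Cst3 UMIs than any other cluster. It had 21 WT and 86 Vsir-/- cells, and Cst3 was at 2746 CPM in WT and 11000 CPM in Vsir-/- cells (log2 ratio, 2.00, 1.89 to 2.11). Here 1 of the 10 genes was higher (11.9% of all genes) and 1 lower, Ctsd (10.1% of all genes), at 170 and 66.8 CPM (-1.36, -1.89 to -0.79). In WT, 37.8% of the Ctsd UMIs of this cluster came from 1 cell, and the ratio was -0.79, under 2-fold, without the cell with the most Ctsd in each library. The cluster does not hold plasmacytoid cells alone, because Xcr1 (11.3 and 190 CPM) and Clec9a (26.4 and 109 CPM), genes of conventional type 1 dendritic cells, were detected beside Siglech (200 and 205 CPM), a gene of plasmacytoid cells. Cells with a UMI of Xcr1 or Clec9a were 4 of 21 in WT and 36 of 86 in the Vsir-/- library. They held 37.0% (33.5%–40.6%) and 80.7% (80.0%–81.3%) of the Cst3 UMIs. However, 3 of those 4 WT cells and 10 of those 36 Vsir-/- cells also had a UMI of Siglech. Only 1 WT cell thus had Xcr1 or Clec9a without Siglech, so these 2 shares do not compare like cells.

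Within the Vsir-/- cells of this cluster the genes separated into groups. The 26 cells with Xcr1 or Clec9a and no Siglech had 20997 CPM of Cst3, compared with 2241 CPM in the 10 cells with Siglech and neither of the others. Ctsl went the opposite way, at 44.9 CPM (28.1 to 68.0) in the former and 881 CPM (684 to 1117) in the latter. Ctsb was at 184 and 1205 CPM, and Ctsh at 384 and 1088 CPM. The 10 cells with both kinds of transcript had 2042 CPM of Cst3 and 703 CPM of Ctsl, close to the Siglech cells. In the 40 Vsir-/- cells with neither, Cst3 was at 4576 CPM, against 2219 CPM in the 14 WT cells with neither, a log2 ratio of 1.04. Lacking a UMI of these genes does not define a cell type, and whether these cells were alike in both libraries was not tested. Cd209a, another dendritic cell gene, was at 412 CPM in WT and 375 CPM in Vsir-/- cells of the whole cluster. The grouping was made after the data had been seen, and each group rests on few cells of 1 library.

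**Figure D4:**
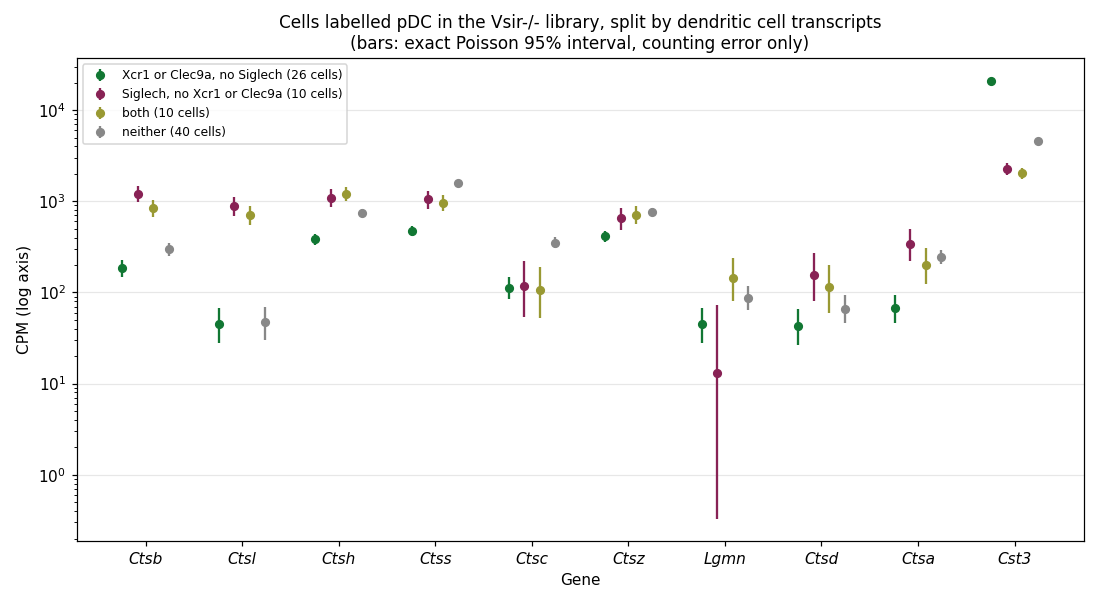
Level of the 10 genes (CPM, log axis) in the 86 Vsir-/- cells named pDC, split by UMIs of Xcr1 or Clec9a and of Siglech; points are sums over the cells of a group and bars are exact Poisson 95% intervals for counting error only. Cst3 is highest in the 26 cells with Xcr1 or Clec9a alone, and Ctsl and Ctsb are highest in the cells with Siglech.

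In B cells, 5 of the 10 genes were at least 2-fold higher in the Vsir-/- library (16.3% of all genes) and 0 were lower (15.9%). Cst3 was at 253 CPM in WT and 4918 CPM in Vsir-/- cells (4.28, 4.17 to 4.39), Ctsl at 13.2 and 170 CPM, Ctsd at 37.0 and 246 CPM, Ctsb at 49.4 and 210 CPM, and Lgmn at 63.2 and 126 CPM. Of the 88 Vsir-/- cells, 9 had a UMI of Xcr1 or Clec9a and held 74.4% of the Cst3 UMIs (72.7%–76.1%), whereas the 2 such WT cells held 0 of 880. In cells with a B cell transcript and neither of these genes (967 WT and 43 Vsir-/- cells), the Cst3 ratio was 1.56 (253 and 745 CPM), that of Ctsl 3.04 and that of Ctsd 1.28. Ctsb (0.44, -0.41 to 1.13) and Lgmn (0.84, 0.21 to 1.38) were within 2-fold in these cells, and Ctsc was past 2-fold downward (-1.10, -1.96 to -0.43). In the whole cluster, without the cell with the most UMIs of the gene in each library, the ratio of Ctsd was 2.03 in place of 2.73 and that of Lgmn 0.76, under 2-fold. Ctss, at 496 and 402 CPM (-0.30, -0.52 to -0.10), stayed within 2-fold. So did Ctsh, at 334 and 206 CPM (-0.69, with an interval from -1 to -0.41). Of 10 partners in antigen processing, a list described further below, 0 were higher and 3 lower in this cluster (16.3% and 15.9% of all genes). Proximal tubule markers were at 20.7 CPM in WT and 2346 CPM in Vsir-/- B cells.

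The clusters that were not compared had few cells in the Vsir-/- library. Group 2 innate lymphoid cells (79 WT and 19 Vsir-/- cells) had 8 and 31 UMIs of Ctsl (19.8 and 213 CPM) and 4 and 16 of Lgmn. Basophils (25 and 2 cells) had 136 and 6 UMIs of Ctsd, and NKT cells (94 and 0 cells) had 252 UMIs of Ctsd in WT.

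The other genes of the lysosome were described from 6 lists, which together hold 115 genes found in the data: other cathepsins, other cystatins and stefins, other hydrolases, membrane proteins and the proton pump, sorting receptors and transcription factors, and partners in antigen processing. In R1, 13 of the 97 genes tested were at least 2-fold higher and 4 lower, with a median log2 ratio of 0.22. In M2-like R2 the counts were 15 and 8 of 101, with a median of 0.05, in Other R2 9 and 6 of 90, with a median of 0.17, and in neutrophils 4 and 13 of 87, with a median of -0.08. These counts are to be read against the shares of all genes given above for each cluster, 13.6% and 8.78% in R1 and 9.99% and 10.6% in neutrophils, for example.

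By list, 6 of 43 other hydrolases and 4 of 30 membrane proteins and pump subunits were higher in R1 (13.6% of all genes). Of either list, 0 were lower (8.78% of all genes). The higher ones include Ifi30 among the hydrolases and Atp6v0c among the pump subunits, both described below. Of the 10 partners in antigen processing, 0 were higher and 3 lower in R1. In M2-like R2, 7 were higher and 3 lower (8.11% and 7.61% of all genes). Among genes of the lists with at least 100 UMIs and at least 4 in each library, the largest ratio in all 4 clusters was that of Atp6v0c, a subunit of the proton pump, at 5.76 CPM in WT and 694 CPM in Vsir-/- R1 cells. Its ratio was between 5.57 and 7.78 in all 13 clusters, and it had 142 UMIs in the whole WT library and 10947 in the Vsir-/- library. Ifi30, the lysosomal thiol reductase, could not be ranked in this way, with 0 UMIs in WT and 5648 in the Vsir-/- library. Whether the difference in gene symbols between the libraries has a part in these values was not tested. Cd63, a membrane protein of late endosomes, was at 131 and 359 CPM in R1 (1.45, 1.13 to 1.79), and was at least 2-fold higher in each of the 11 clusters where it could be tested. Cstb, which encodes the intracellular cathepsin inhibitor stefin B, was at 60.4 and 203 CPM in R1 (1.73, 1.28 to 2.25). In Other R2, Acp2, lysosomal acid phosphatase, was at 48.4 and 98.4 CPM (1.02, 0.52 to 1.53), and in neutrophils Lamp1, a main protein of the lysosomal membrane, was at 94.7 and 170 CPM (0.85, 0.52 to 1.16).

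Among the smallest ratios in R1, all within 2-fold, were those of Prcp (186 and 112 CPM), a carboxypeptidase, and Scarb2 (101 and 67.5 CPM), the receptor that carries glucocerebrosidase to lysosomes. In M2-like R2, H2-Eb1, an MHC class II chain, was higher (419 and 2612 CPM; 2.64), whereas H2-Ob (40.1 and 4.18 CPM) and H2-DMb2 (41.4 and 5.37 CPM), which take part in peptide loading, and Ctsw (21.9 and 4.18 CPM), a cathepsin of cytotoxic lymphocytes, were lower. In Other R2 the smallest were H2-Ob (135 and 6.47 CPM; -4.25), H2-Eb1 (907 and 610 CPM) and H2-DMa (144 and 107 CPM). H2-Ob is a gene of B cells, whose markers were more abundant in WT macrophages as given above. The part of B cell transcripts in the H2-Ob ratios was not tested. In neutrophils the smallest were the stefins Stfa1 (490 and 104 CPM; -2.22) and Stfa2 (99.2 and 21.9 CPM; -2.14) and the invariant chain gene Cd74 (870 and 404 CPM; -1.10). Near-identical copies of the stefin genes lie side by side in the genome, so reads may have been divided between them.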

How the data were processed

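Kidney cells were loaded on the 10x 3' chemistry (version 3.1) after digestion in liberase (0.2 mg/ml, 30 minutes, 37°C). The authors made the deposited counts, whole numbers of UMIs that were not normalized, with Cell Ranger (version 3.1.0), and filtered and clustered the cells in Seurat (version 3.2.3) under R (version 4.0.3). Per the labels the build is mm9, and no annotation is named. The deposited percent values are mitochondrial shares per cell, which the authors limited to 10%, and these were used only for a stricter limit. Cluster names are the authors' own, and no doublets were removed here.

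For every cluster of a library, UMIs were added up and divided by all UMIs of that sum (CPM). Exact Poisson, Clopper-Pearson and conditional ratio intervals at the 95% level cover counting error only. Libraries of 32799550 and 18601189 UMIs leave little such error in large clusters, but the smallest Vsir-/- sum compared, 166037 UMIs in EM-like CD8+ T cells, resolves only large ratios. Because each genotype had 1 library, no p-value was computed, and a ratio was called past 2-fold by its size alone. No replicate block could be fitted.

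The genes, the lists and the tests were chosen with earlier results of these data known. Other lysosomal genes were named by a rule: the 3 largest and 3 smallest ratios among list genes with at least 100 UMIs and at least 4 per library, in the macrophage clusters and neutrophils. One result under this rule is not reported here. The 3 genes most like each member were those with the highest Pearson's r. Symbols set beside these for the libraries were chosen after their values were seen. Alternatives changed the cells, depth, denominator, filter, centring, pseudocount, weighting and free RNA. The ratio step was tested on simulated counts. Python 3.11.15, numpy 2.4.6, scipy 1.17.1, pandas 2.3.3 and matplotlib 3.10.9 were used. RefSeq promoters (GRCm38.p6) were matched by symbol, and their coordinates are not those of the deposited files.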

Additional observations from a re-analysis of the deposited data

Results flagged for a closer look

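Ctsa was past 2-fold in opposite directions in different clusters, with a log2 ratio of 1.26 (Vsir-/- over WT) in the non-EM-like CD4+ cluster and -1.16 in gamma delta T cells. Ctsd likewise had a ratio of 2.73 in B cells and -1.36 in the cluster named pDC. These differences between clusters were not tested, since each genotype had 1 library. The Ctsa value in the non-EM-like CD4+ cluster, where the median of all genes was 0.91, was within 2-fold in cells with a T cell transcript (0.79, 0.40 to 1.16). It was also within 2-fold after the subtraction of the tubule-rich profile (0.43). That profile came from 233 cells of this same cluster and took 81.3% of its UMIs, so the value after it cannot serve as a check. Without the cell with the most Ctsd in each library the Ctsd ratio was 2.03 in B cells and -0.79, under 2-fold, in the pDC cluster. The Ctsa value in gamma delta T cells rests on 33 and 9 UMIs, and 43 of the 88 Vsir-/- cells named B cells had no B cell transcript.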

How the results depend on the processing

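No paired analysis was possible because each genotype had 1 library, and for the same reason no replicate could be left out. Subtracting the profile of Vsir-/- non-EM-like CD4+ cells without T cell transcripts moved the results most: 18 combinations of 119 were past 2-fold upward and 18 downward (34 and 7 of 124 as reported), and the median log2 ratio of the 10 genes was -0.63 in neutrophils and -0.03 in EM-like CD4+ T cells. It reversed 7 of the 36 called ratios it could give, those of Ctsl in EM-like CD4+ T cells (-4.88), non-EM-like CD8+ T cells (-3.44) and NK cells (-2.26), Ctsz in non-EM-like CD8+ T cells (-0.69), Ctsh in NK (-2.74) and proliferating cells (-0.51), and Lgmn in neutrophils (-1.25). This profile also holds the transcripts of its own cells, so it can take away too much. It took every UMI of Ctsl in those T and NK clusters and of Ctsh in NK cells, so those values are set by the 0.5 UMIs added. So are those of Ctsb (-5.08) and Cst3 (-5.39) in non-EM-like CD8+ T cells, which were within 2-fold before the subtraction. The count of lower combinations includes such sums. No share over all genes was computed after the subtraction. Without the non-EM-like CD4+ and proliferating clusters, a choice made after seeing the data, 21 combinations were higher and 4 lower. In the remaining clusters, 5.98% to 16.3% of all genes were higher and 5.41% to 15.9% lower. The count of lower combinations was 14 at a fold of 1.5 and 3 at a fold of 3. Shares over all genes were not computed at these folds, so these counts have no background to be read against. The median was 0.09 in R1 macrophages as a mean over cells, and 0.02 in EM-like CD4+ T cells thinned to 1000 UMIs. The macrophage share of the UMIs of the 10 genes (63.0% in WT and 49.5% in Vsir-/- cells) was 64.7% and 55.1% with mitochondrial shares of at most 5%, 52.7% and 63.1% after thinning, and 63.5% and 59.6% in cells with a T cell or Ptprc transcript. The other 79 values of these kinds stayed within 1.5 times (counts), within their counting intervals (shares), or within a band set for medians. That band ran from the median of the genes' lower bounds to the median of their upper bounds, and is not an interval of the median itself. Called ratios that still passed the filter kept their direction under every alternative but the subtraction. Those still past 2-fold were 22 of 25 after thinning, 24 of 36 after the subtraction, 35 of 41 as a mean over cells, and 35 of 39 with mitochondrial shares of at most 5%. Without the cell with the most UMIs of the gene 35 of 39 stayed past 2-fold. The others were Lgmn in B cells (0.76), Ctsz in non-EM-like (0.73) and EM-like CD8+ T cells (0.80), and Ctsd in pDC (-0.79). Under the remaining alternatives at least 37 of 41, or all that passed the filter, stayed past 2-fold. Depth limits gamma delta and EM-like CD8+ T cells most, where Ctsh, Ctsl and Lgmn had under 20 UMIs.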
